A study of Mus musculus with 9 samples.

Results

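The genes described here encode the receptors on which glutamate acts, 4 auxiliary proteins of those receptors, and the transporters that load glutamate into synaptic vesicles. They were taken by name from the deposited expression table, which held all 30 among its 22192 genes. RNA was measured in 9 brain libraries from mice of the outbred KM stock, given as male, with 3 libraries in each of 3 groups. Young mice were 5 months old and received oral physiological saline. Aged mice were 18 months old and received the same. Treated mice were also 18 months old and were gavaged with 200 mg/kg of GRP-E1F2, a polysaccharide from ginseng root. Dosing was every 2 days for 4 weeks in all groups. The groups are called young, aged and treated below, and the study asked what differed with age and with the polysaccharide.

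Glutamate carries most fast excitatory transmission in the brain. AMPA and kainate receptors open within milliseconds of its release, whereas NMDA receptors need depolarisation and a co-agonist as well, admit calcium and take part in synaptic plasticity. Metabotropic receptors signal through G proteins, and many of them sit on the releasing terminal and damp release. The subunit mix is known to differ between regions: in rodents Grin2c, Gria4 and Grm4 are abundant in cerebellar granule cells or Bergmann glia, Slc17a7 serves neocortex, hippocampus and cerebellar granule cells, and Slc17a6 serves thalamus and brainstem.

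All values are TPM (a share of a library's RNA scaled for transcript length). The table holds no counts, so depth and counting error are unknown. The labels call the libraries of a group parallel samples and do not tie them to separate mice. The p-values therefore reflect only library-to-library spread, which may be technical. A single library of each group held intermediate values: young library 3 at 89.2%, aged library 2 at 91.5% and treated library 3 at 91.8% of tested genes with a 1.3-fold or wider gap between its group mates, where the remaining 6 libraries reached 19.2% to 30.5%. Of the 30 genes described here, taken with no minimum gap, 23, 24 and 24 lay between the group mates in these libraries. Each count of changed genes was therefore repeated with these 3 left out, leaving 2 libraries per group. Although the tissue is given as brain, the extraction protocol names retinas; Grm6, the receptor of retinal bipolar cells, was listed at 0 in every library. Of 4 Y-linked genes (Uty, Kdm5d, Ddx3y, Eif2s3y) none exceeded 0.174 TPM, which goes against the labelled sex. Markers of brain regions also differed between the groups, and their values stand beside the results they move with.

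Promoter sequence was at hand for 20 of the 30 genes (26 promoters, from 250 bases before to 50 after a start site, RefSeq, GRCm38.p6). Those of Grin2c and Gria4, lowest in the treated libraries, and of Cnih2 and Cnih3, highest in them, are shown because these genes carry the opposite group differences described below. They run 5′ to 3′ with the GC box, GGGCGG on either strand, in capitals.
Grin2c (chr11:115267194-115267493, minus strand): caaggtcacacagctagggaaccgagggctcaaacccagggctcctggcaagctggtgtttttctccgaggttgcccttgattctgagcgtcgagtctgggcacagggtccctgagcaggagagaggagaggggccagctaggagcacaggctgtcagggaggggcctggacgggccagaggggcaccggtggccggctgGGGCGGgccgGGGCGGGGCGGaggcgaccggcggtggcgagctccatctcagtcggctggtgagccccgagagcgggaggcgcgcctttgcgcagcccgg
Gria4 (chr9:4796185-4796484, minus strand): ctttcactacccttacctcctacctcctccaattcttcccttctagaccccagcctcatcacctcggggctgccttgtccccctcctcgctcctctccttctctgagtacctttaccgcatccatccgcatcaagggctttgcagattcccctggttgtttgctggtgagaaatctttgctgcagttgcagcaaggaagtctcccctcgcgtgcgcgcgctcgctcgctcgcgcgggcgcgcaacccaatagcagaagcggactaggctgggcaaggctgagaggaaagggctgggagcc
Cnih2 (chr19:5098472-5098771, minus strand): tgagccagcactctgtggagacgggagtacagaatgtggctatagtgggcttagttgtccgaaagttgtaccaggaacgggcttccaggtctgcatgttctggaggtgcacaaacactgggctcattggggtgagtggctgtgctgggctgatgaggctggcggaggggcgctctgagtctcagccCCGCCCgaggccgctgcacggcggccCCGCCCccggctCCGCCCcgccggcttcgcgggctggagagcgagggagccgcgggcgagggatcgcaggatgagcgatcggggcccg
Cnih3 (chr1:181352378-181352677, plus strand): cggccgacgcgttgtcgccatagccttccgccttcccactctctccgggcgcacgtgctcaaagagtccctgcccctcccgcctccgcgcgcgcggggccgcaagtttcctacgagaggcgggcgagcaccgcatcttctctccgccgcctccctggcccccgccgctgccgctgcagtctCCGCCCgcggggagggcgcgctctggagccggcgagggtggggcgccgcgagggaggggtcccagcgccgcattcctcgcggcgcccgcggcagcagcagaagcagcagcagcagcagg
The Grin2c promoter held 3 GC boxes, Cnih2 held 3, Cnih3 held 1 and Gria4 none. Over all 26 promoters 15 held it (57.7%), against 35.7% of all 32851 promoters in the table. The TATA motif TATAAA was found in 1 (3.85%, against 13.6%), that of Grin3b, and the cAMP response element TGACGTCA in none (against 1.79%). The E-box CACGTG was present in 2, Cnih3 and Grin1 (7.69%, against 7.15%). The median promoter held 14 CpG dinucleotides, against 7 over all promoters. These are letter matches on either strand, with overlaps between motifs not removed.

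With age, 14 of the 29 tested genes passed an adjusted p of 0.05 (limma on log2(TPM + 1), Benjamini-Hochberg over 13301 genes): 9 rose and 5 fell. Grin3b, whose mean was under the minimum of 1 TPM, was not tested. The 9 that rose were Grin2b, Grik3, Grik5, Grm3, Grm5, Slc17a8, Neto1, Cnih2 and Cnih3, with log2 fold changes of 0.38 to 0.66. The 5 that fell were Gria4, Grin2c, Grik1, Grm4 and Slc17a6, with -0.32 to -1.10. Over all genes 16.7% passed, 5.48% upward and 11.2% downward. The median difference of the 29 was 0.21 on the log2 scale, against -0.05 over all tested genes. The young and aged libraries did not overlap at 21 of the 29, 14 higher and 7 lower in aged libraries, where all tested genes gave 41.5% (14.7% higher, 26.8% lower). With 2 libraries per group none of the 29 passed by limma (0.0226% of all genes did), 9 had an unadjusted p under 0.05 (as did 1431 of all 13301 genes), and adjusted p for the 14 ran from 0.384 to 0.573. Leaving out young library 3 or aged library 2 also left 0 of the 29, with young library 2 or aged library 1 left out 2 passed, and 3 passed without treated library 3, so no call with age held in every subset of the libraries.

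With GRP-E1F2 against saline at 18 months, 12 of the 29 passed: 8 rose (Gria1, Grid1, Grm2, Grm5, Slc17a8, Neto1, Cnih2 and Cnih3, log2 fold changes 0.20 to 0.60) and 4 fell (Gria4, Grin2c, Grik1 and Grm4, -0.30 to -1.67). The background was 20.8%, with 7.47% upward and 13.4% downward, and the median was 0.20 for the 29 and -0.02 over all genes. Quantile normalisation gave 12 that rose and 3 that fell. Groups did not overlap at 16 of the 29, 12 higher and 4 lower in treated libraries (36.3% of all genes, 14.9% and 21.5%). With 2 libraries per group 2 passed, Grin2c (adjusted p = 0.00863) and Grm4 (0.0343), where 1.86% of all genes did. Gria4 missed at 0.0539, and the 8 that had risen were at 0.350 to 0.552. Without aged library 2 or treated library 3, 3 passed, all downward. Without aged library 3, 5 passed, and without young library 3 or treated library 1, 6 passed.

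Between treated 18-month and young saline mice, which differ in age and agent at once, 22 of the 29 passed, 17 upward (0.19 to 1.19) and 5 downward (-0.62 to -2.32). All tested genes gave 46.6%, 17.2% upward and 29.4% downward, and the medians were 0.49 and -0.07. Groups did not overlap at 25 of the 29, 19 higher and 6 lower in treated libraries, against 61.4% of all tested genes (22.9% and 38.5%). With 2 libraries per group 9 passed (12.9% of all genes): Gria4, Grin2c and Grm4 fell, and Grik5, Grm5, Slc17a8, Neto1, Cnih2 and Cnih3 rose. This comparison shares its libraries with the other comparisons, so its values are not further evidence for them.

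**Figure D1:**
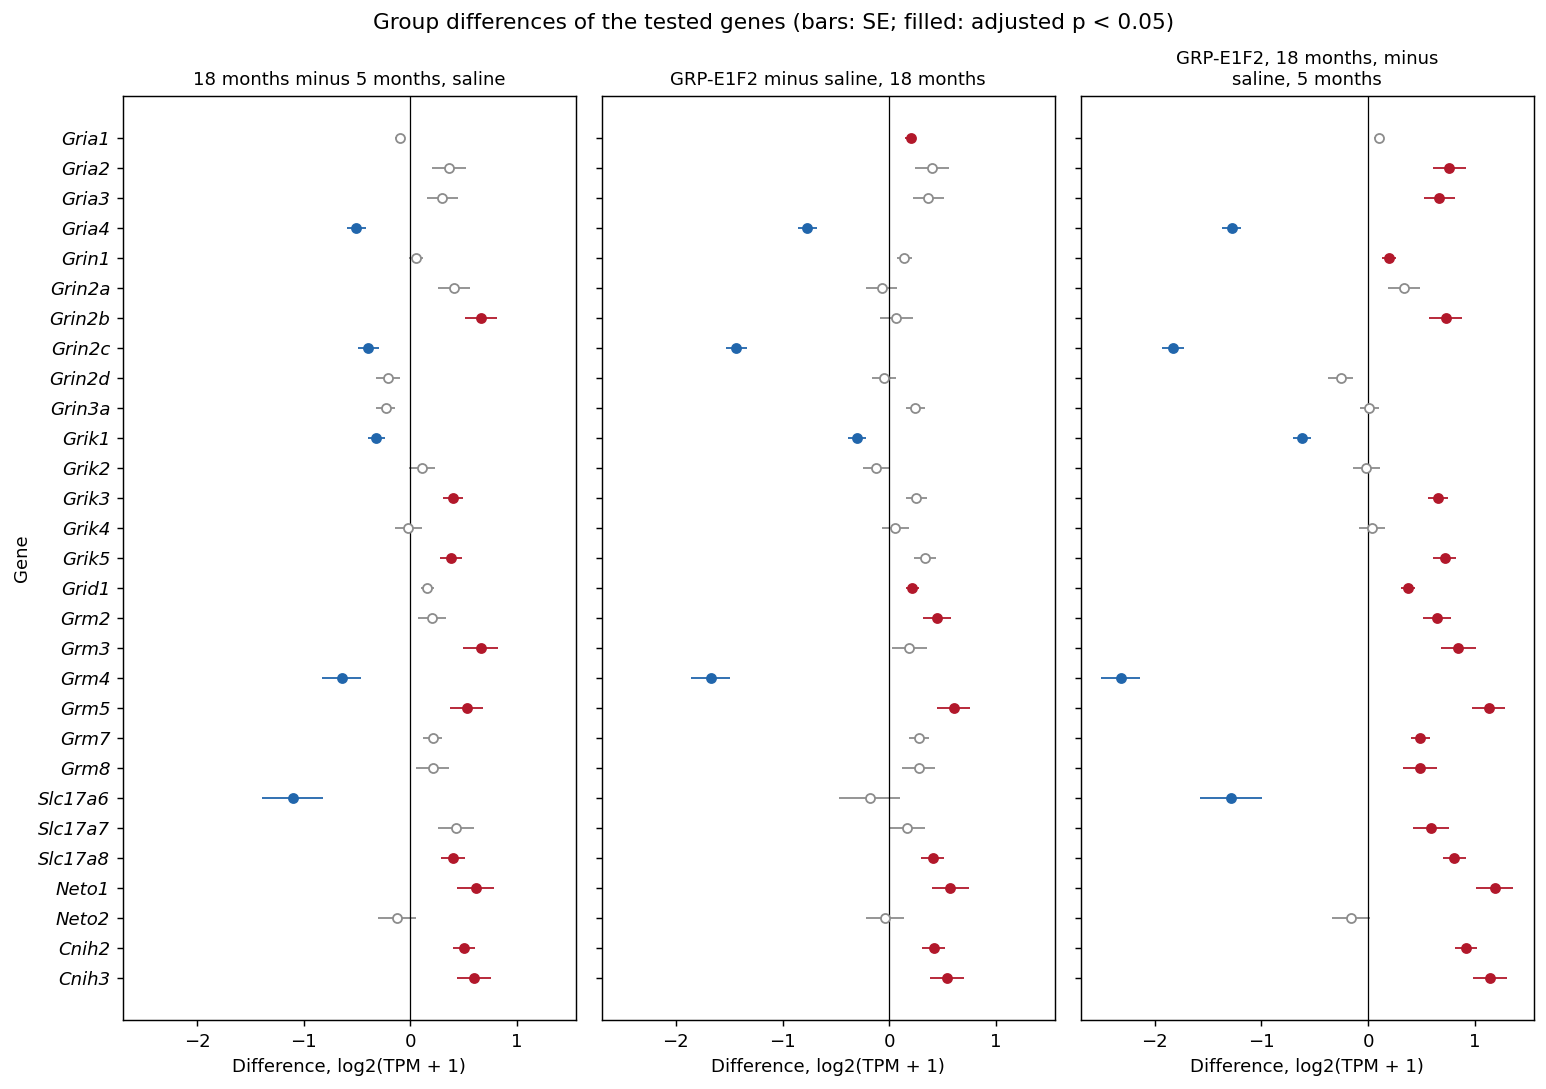
Differences between groups for the 29 tested genes, in log2(TPM + 1), with standard errors as bars; red points rose and blue points fell at an adjusted p under 0.05, and open grey points did not pass. Grm4, Grin2c and Gria4 lie to the left of 0 in all panels, with Grm4 at -1.67 for GRP-E1F2 against saline, while Neto1, Grm5, Cnih2, Cnih3 and Slc17a8 lie to the right.

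Beside these differences, summed TPM of cerebellar markers fell in the same order. The 6 granule cell markers (led by Cbln1 and Cbln3) summed to 1298, 1831 and 1540.1 TPM in young, 892, 919.8 and 937 in aged and 33.3, 31.9 and 32.0 in treated libraries, and all 6 fell in each comparison. The 5 Purkinje cell markers summed to 2217 to 3223 TPM in young, 1286 to 1603 in aged and 166 to 171 in treated libraries, and 4 of them fell with age and 5 with GRP-E1F2. The 7 hindbrain and spinal cord markers summed to 39.2 to 55.0, 1.58 to 7.25 and 0.473 to 0.732 TPM, in the same order of groups, with 3 of them at 0 in all treated libraries. Of the 5 hindbrain markers tested, 5 fell with age and 1 with GRP-E1F2. Opposite to these, 6 neocortical excitatory markers summed to 46.0 to 78.3 TPM in young, 103 to 155 in aged and 109 to 228 in treated libraries; 2 rose with age, none with GRP-E1F2 by limma and 5 from young to treated. The 7 striatal markers summed to 279 to 1007, 1041 to 1464 and 814 to 2317 TPM. The 7 markers of neurons of all kinds summed to 5395 to 5486, 5287 to 5839 and 4798 to 5873 TPM and overlapped between groups. In bulk tissue fewer cells of a type and less RNA per cell cannot be told apart, and a difference in the regions sampled cannot be told apart from age or agent. The part of region markers in the results on glutamate genes was not tested.

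**Figure D2:**
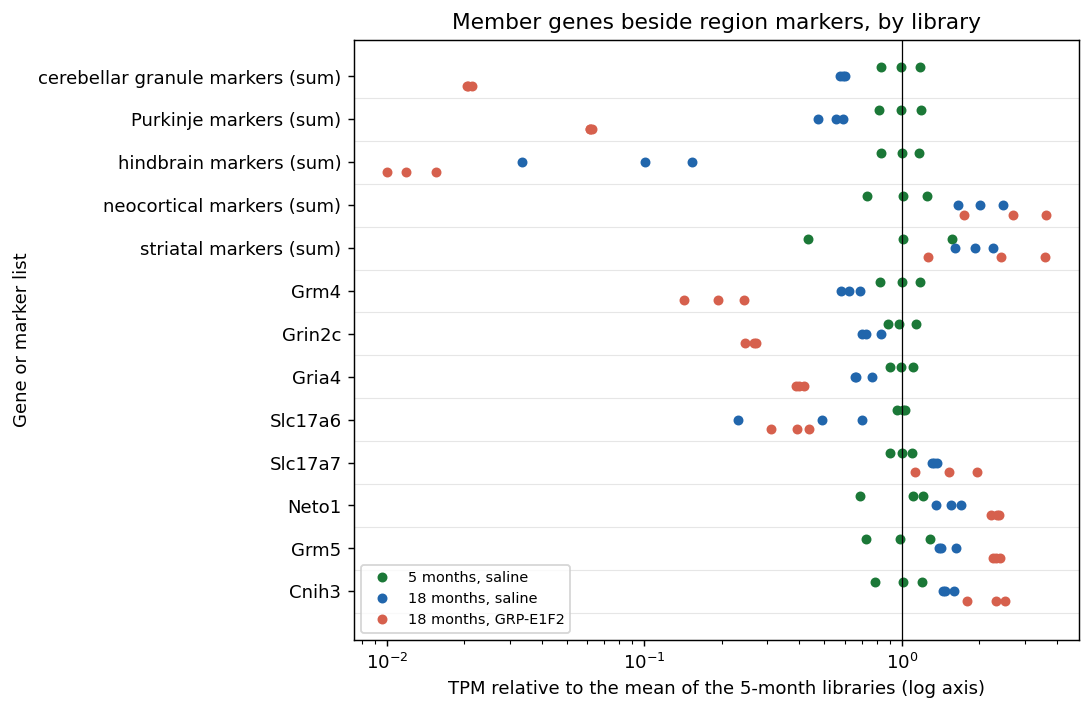
Values of region marker lists and of 8 glutamate genes in each library, divided by the mean of the 5-month libraries, on a log axis; each point is 1 library. The treated libraries lie far to the left for cerebellar and hindbrain markers, less far for Grm4, Grin2c and Gria4, and to the right for Neto1, Grm5 and Cnih3.

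Among the AMPA receptor subunits Gria4 differed most between groups. Gria4 (NCBI gene 14802, chr9:4417893-4796234, minus strand), a subunit of fast-gating receptors, stood at 48.8, 60.3 and 54.2 TPM in the young libraries, 41.8, 36.1 and 35.9 TPM in the aged and 22.6, 21.2 and 21.6 TPM in the treated libraries. The groups did not overlap, and every aged library lay below the young and above the treated ones. Its log2 fold change was -0.51 (SE 0.0885, limma adjusted p = 0.00974) with age and -0.77 (SE 0.0885, limma adjusted p = 0.000524) with GRP-E1F2. From young to treated the mean level fell by a factor of 2.49, while the granule cell marker sum fell by a factor of 48.0. The 6 markers in that sum fell by factors from 11.2 (Zic1) to 6725 (Fat2, near or at 0 in treated libraries). Gria2, which in its edited form makes AMPA receptors impermeable to calcium, stood at 42.8, 35.3 and 40.2 TPM in the young libraries, 63.3, 50.5 and 40.7 TPM in the aged and 77.0, 58.8 and 67.4 TPM in the treated libraries. Its young and aged values overlapped, as did its aged and treated values, and neither difference passed (adjusted p = 0.138 and 0.10). The treated libraries all lay above the young ones, by 0.76 on the log2 scale (SE 0.156, limma adjusted p = 0.00370).

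Gria3 had means of 19.4 ± 1.53, 24.3 ± 4.31 and 31.6 ± 5.00 TPM (SD, n = 3 in each group) in young, aged and treated libraries; only the difference between treated and young passed (log2 fold change 0.67, SE 0.142, limma adjusted p = 0.00449). Gria1, a main subunit of hippocampal and cortical AMPA receptors, varied least, from 59.8 to 72.0 TPM over the 9 libraries. It stood at 64.7, 67.0 and 65.7 TPM in the young libraries, 64.2, 59.8 and 60.1 TPM in the aged and 69.7, 72.0 and 70.2 TPM in the treated libraries. Gria1 did not pass with age (log2 fold change -0.10, adjusted p = 0.190) and rose with GRP-E1F2 by 0.20 on the log2 scale (SE 0.0495, limma adjusted p = 0.0216). The 4 subunits summed to 179, 175 and 192 TPM in the means of the 3 groups, and these sums overlapped between groups. Gria4 made up 27.5 to 33.4% of the sum in young, 21.1 to 22.8% in aged and 11.0 to 11.9% in treated libraries. For Gria2 the shares were 19.6 to 24.1%, 25.9 to 31.9% and 33.0 to 37.4%. Exons of Gria1, Gria2, Gria3 and Gria4 cover 6043, 15548, 9859 and 6305 bases in the GENCODE M21 annotation. The lengths by which TPM was divided are unknown, so the sum and the shares depend on them.

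The cornichon genes Cnih2 and Cnih3, whose proteins accompany AMPA receptors to the synapse and slow their closing, were higher in the treated libraries than in the others. Cnih2 (NCBI gene 12794, chr19:5092868-5098521, minus strand) stood at 360.4, 258 and 323 TPM in the young libraries, 462, 438 and 422 TPM in the aged and 603, 573 and 585 TPM in the treated libraries. Every treated library lay above every aged one, and every aged above every young one. The log2 fold change was 0.50 (SE 0.107, limma adjusted p = 0.0183) with age and 0.42 (SE 0.107, limma adjusted p = 0.0250) with GRP-E1F2. Cnih3 stood at 71.5, 46.9 and 60.3 TPM in the young libraries, 95.0, 87.3 and 86.1 TPM in the aged and 150.2, 107 and 139 TPM in the treated libraries and kept the same order of groups. Its log2 fold changes were 0.60 (SE 0.159, limma adjusted p = 0.0354) and 0.54 (SE 0.159, limma adjusted p = 0.0402). Young library 2 was the lowest of all 9 for both genes, and it was also the young library with the highest granule cell marker sum. The level of Cnih2 was 5.04 to 5.49 times that of Cnih3 in young, 4.86 to 5.02 times in aged and 4.02 to 5.35 times in treated libraries. These ranges overlapped between treated and the other groups.

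**Figure D3:**
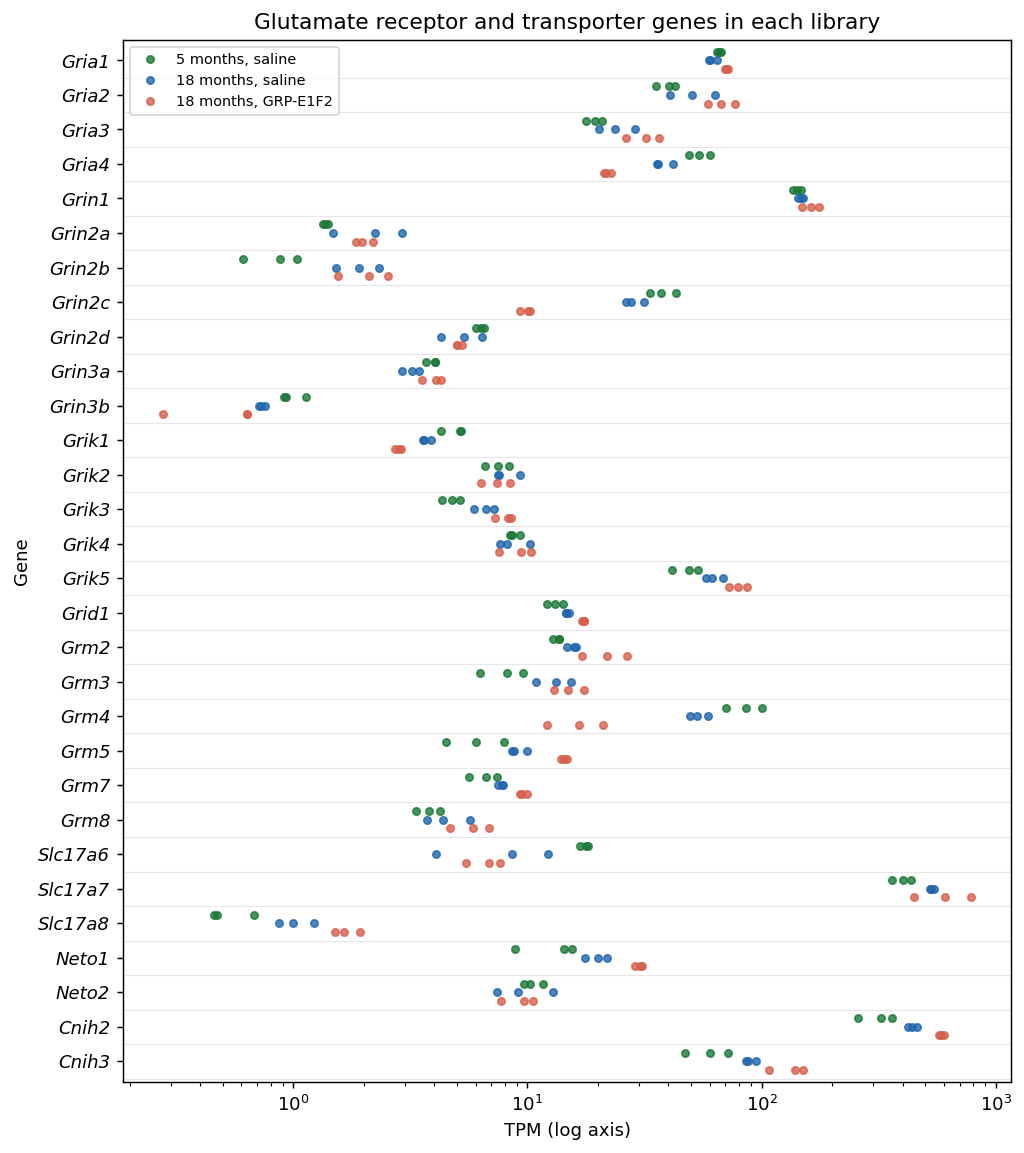
TPM of the 30 genes in each of the 9 libraries on a log axis; each point is 1 library, coloured by group. Levels run from under 1 TPM for Grin3b and Slc17a8 to over 200 for Slc17a7 and Cnih2, and the 3 groups separate without overlap at Gria4, Grin2c, Grm4, Grm5, Neto1, Cnih2 and Cnih3 among others.

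Of the 7 NMDA receptor genes, Grin2c was the one that changed most. Grin1, the obligatory subunit of all NMDA receptors, stood at 147, 136 and 142 TPM in the young libraries, 149.9, 143 and 147 TPM in the aged and 176, 148 and 163 TPM in the treated libraries. It did not pass with age (log2 fold change 0.05, adjusted p = 0.615) or with GRP-E1F2 (0.14, adjusted p = 0.171). From young to treated Grin1 rose by 0.19 on the log2 scale (SE 0.0674, limma adjusted p = 0.0404). This call was lost under 8 of 20 alternatives, and some calls of other genes were lost under more, as given further below. Grin2c (NCBI gene 14813, chr11:115249169-115267297, minus strand), the subunit that replaces Grin2b in maturing cerebellar granule cells, stood at 33.5, 43.0 and 37.0 TPM in the young libraries, 26.4, 27.5 and 31.4 TPM in the aged and 9.32, 10.1 and 10.2 TPM in the treated libraries. The groups did not overlap, and the treated libraries held 0.261 times the young mean. Grin2c changed by -0.39 on the log2 scale (SE 0.0992, limma adjusted p = 0.0309) with age and -1.43 (SE 0.0992, limma adjusted p = 2.43e-05) with GRP-E1F2, and this latter difference passed under every alternative tried, with adjusted p from 2.13e-05 to 0.00863. From aged to treated, the mean fell by a factor of 2.88 for Grin2c and 28.2 for the granule cell marker sum. The 6 markers in that sum fell by factors from 6.64 (Zic1) to 3585 (Fat2, near or at 0 in treated libraries).

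The subunits Grin2a and Grin2b, which set the kinetics of cortical NMDA receptors, were listed at low levels in every library. Grin2a stood at 1.41, 1.34 and 1.37 TPM in the young libraries, 2.91, 2.23 and 1.47 TPM in the aged and 2.18, 1.84 and 1.97 TPM in the treated libraries and passed in no comparison. Grin2b stood at 1.03, 0.613 and 0.877 TPM in the young libraries, 2.32, 1.91 and 1.52 TPM in the aged and 2.53, 1.55 and 2.11 TPM in the treated libraries, rose with age by 0.66 on the log2 scale (SE 0.153, limma adjusted p = 0.0236), and did not pass with GRP-E1F2 (log2 fold change 0.07, adjusted p = 0.793). Their exons cover 17933 and 24842 bases in the GENCODE M21 annotation, against coding lengths of 4392 and 4446, whereas Grin2c has 5037 and 3717. TPM is divided by length, and the lengths applied here are unknown, so levels set between these subunits depend on them. A difference between groups is taken within 1 gene.

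Grin2c took 78.9 to 83.9% of the summed TPM of the 4 Grin2 genes in young, 73.5 to 77.0% in aged and 48.9 to 54.6% in treated libraries. Grin2d, a subunit of interneurons and the brainstem, stood at 6.28 ± 0.241, 5.35 ± 1.07 and 5.09 ± 0.155 TPM (SD, n = 3) and passed in no comparison, yet its share was 12.3 to 15.3%, 11.9 to 15.7% and 26.3 to 27.1%. The share of Grin2d thus separated the treated libraries from the other groups while its level did not pass. Grin3a, a subunit that lowers calcium entry, stood at 3.92 ± 0.197, 3.19 ± 0.277 and 3.97 ± 0.392 TPM and passed in no comparison. Grin3b, known from motor neurons, was listed at 0.930, 0.915 and 1.13 TPM in young, 0.716, 0.728 and 0.757 TPM in aged and 0.278, 0.637 and 0.632 TPM in treated libraries and was too low to be tested. These groups did not overlap, and the lowest level was in treated library 1.

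**Figure D4:**
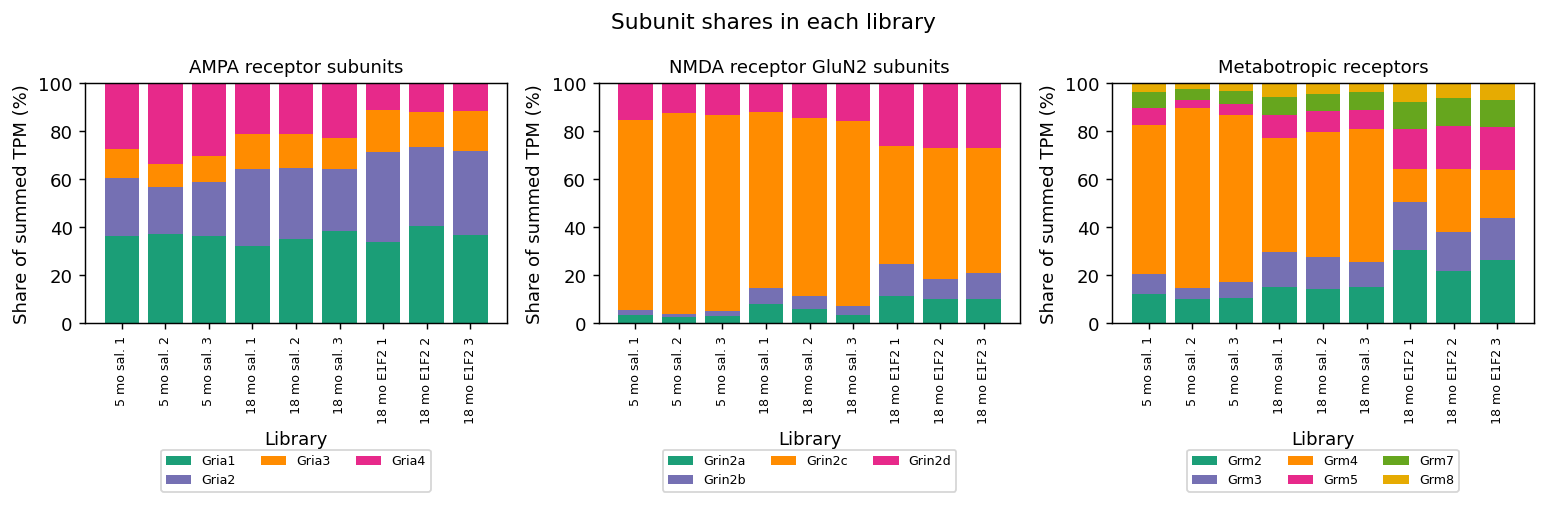
Share of each subunit or receptor in the summed TPM of its class in each of the 9 libraries (percent; bars stack to 100). Gria4, Grin2c and Grm4 take smaller shares in the treated than in the other libraries, and Gria2, Grin2d, Grm2 and Grm5 larger ones.

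Of the 5 kainate receptor subunits, Grik5 was the most abundant and Grik1 the only one that fell. Grik5, a high-affinity subunit that works together with Grik1 to Grik3, stood at 53.7, 41.5 and 49.1 TPM in the young libraries, 58.1, 61.6 and 68.6 TPM in the aged and 86.3, 72.7 and 79.2 TPM in the treated libraries, with no overlap between groups. It rose with age by 0.38 on the log2 scale (SE 0.105, limma adjusted p = 0.0396), just missed with GRP-E1F2 (log2 fold change 0.33, adjusted p = 0.0525), and rose from young to treated by 0.72 on the log2 scale (SE 0.105, limma adjusted p = 0.000671). Grik1, which in the forebrain marks interneurons, stood at 4.29, 5.13 and 5.20 TPM in the young libraries, 3.59, 3.63 and 3.87 TPM in the aged and 2.72, 2.88 and 2.83 TPM in the treated libraries and fell in both steps, with log2 fold changes of -0.32 (adjusted p = 0.0334) and -0.30 (0.0315). Grik3 rose with age from 4.75 ± 0.419 to 6.57 ± 0.660 TPM (log2 fold change 0.40, SE 0.0948, limma adjusted p = 0.0263) and was 8.02 ± 0.655 TPM in treated libraries (adjusted p = 0.0886 against aged). Grik2, the principal subunit at mossy fibre synapses, and Grik4, its high-affinity partner, passed in no comparison, with means between 7.38 and 9.08 TPM. Their groups overlapped in every comparison.

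Neto1 and Neto2 encode auxiliary subunits that slow kainate receptor gating, and Neto1 also binds NMDA receptors. Neto1 (NCBI gene 246317, chr18:86394815-86506721, plus strand) stood at 15.6, 8.88 and 14.3 TPM in the young libraries, 21.9, 20.0 and 17.6 TPM in the aged and 28.8, 30.8 and 30.2 TPM in the treated libraries. The groups did not overlap, and the treated libraries held 2.31 times the young mean. The log2 fold change was 0.61 (SE 0.172, limma adjusted p = 0.0420) with age and 0.57 (SE 0.172, limma adjusted p = 0.0442) with GRP-E1F2. Neto2 passed in no comparison, with 11.7, 9.65 and 10.2 TPM in the young libraries, 12.9, 9.09 and 7.38 TPM in the aged and 7.69, 10.6 and 9.70 TPM in the treated libraries, and its groups overlapped. The ratio of Neto1 to Neto2 was 0.921 to 1.40 in young, 1.70 to 2.39 in aged and 2.90 to 3.74 in treated libraries. Grid1, a delta receptor that binds cerebellin and organises synapses, stood at 14.2, 12.2 and 13.1 TPM in the young libraries, 14.6, 14.7 and 15.0 TPM in the aged and 17.4, 17.2 and 17.4 TPM in the treated libraries. Its groups did not overlap; it did not pass with age (adjusted p = 0.113) and rose with GRP-E1F2 by 0.22 on the log2 scale (SE 0.0641, limma adjusted p = 0.0423).

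Of the 6 metabotropic receptors, Grm4 fell in each comparison and none of the others did. Grm4 (NCBI gene 268934, chr17:27422387-27513826, minus strand), a presynaptic group III receptor of granule cell terminals, stood at 70.2, 100.3 and 85.8 TPM in the young libraries, 49.5, 53.1 and 58.9 TPM in the aged and 12.2, 20.9 and 16.5 TPM in the treated libraries. The treated libraries lay far below the others, and the treated mean was 0.194 times the young mean. Aged and young libraries did not overlap but lay closer together. The log2 fold change was -0.64 (SE 0.183, limma adjusted p = 0.0434) with age and -1.67 (SE 0.183, limma adjusted p = 0.000385) with GRP-E1F2. Among treated libraries Grm4 was highest in library 2, at 20.9 TPM. The granule cell marker sum was 33.3, 31.9 and 32.0 TPM in treated libraries 1, 2 and 3, and its markers differed in order. Zic1 stood at 16.3, 10.9 and 13.2 TPM, and Cbln1 at 10.1, 15.7 and 12.5 TPM. In library 2 the striatal marker sum was 2317 TPM, against 814 TPM in library 1. Summed olfactory bulb, GABAergic, oligodendrocyte and microglia markers were also highest in library 2 and lowest in library 1. A link of Grm4 to any of these lists was not tested.

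Grm5, the postsynaptic group I receptor that releases calcium from stores and is abundant in forebrain, stood at 7.92, 4.47 and 6.02 TPM in the young libraries, 9.99, 8.72 and 8.57 TPM in the aged and 14.3, 13.9 and 14.7 TPM in the treated libraries. Its groups did not overlap, and it rose by 0.53 on the log2 scale (SE 0.152, limma adjusted p = 0.0453) with age and by 0.60 on the log2 scale (SE 0.152, limma adjusted p = 0.0232) with GRP-E1F2. Grm2, a presynaptic group II receptor, stood at 13.6, 13.6 and 12.9 TPM in the young libraries, 15.8, 14.7 and 16.1 TPM in the aged and 26.7, 17.0 and 21.8 TPM in the treated libraries. It rose with GRP-E1F2 (log2 fold change 0.45, SE 0.131, limma adjusted p = 0.0416), where treated library 2 lay close to the aged ones, and did not pass with age (adjusted p = 0.308). Grm3, the group II receptor that astrocytes also carry, rose with age from 7.98 ± 1.65 to 13.1 ± 2.18 TPM (log2 fold change 0.66, SE 0.164, limma adjusted p = 0.0297) and was 15.1 ± 2.24 TPM in treated libraries, where it overlapped the aged ones (adjusted p = 0.457). Beside it, 5 astrocyte markers, of which 3 fell with age, summed to 348 to 400.2 TPM in young, 225 to 284 in aged and 182 to 203 in treated libraries.

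Grm7 and Grm8 are presynaptic group III receptors like Grm4. Grm7 stood at 7.44, 5.62 and 6.64 TPM in the young libraries, 7.78, 7.50 and 7.85 TPM in the aged and 9.91, 9.45 and 9.32 TPM in the treated libraries, and its treated libraries lay above all others. Grm8 stood at 4.24, 3.36 and 3.81 TPM in the young libraries, 5.70, 4.37 and 3.72 TPM in the aged and 6.82, 4.65 and 5.84 TPM in the treated libraries, with aged libraries that overlapped both other groups. Neither passed with age (adjusted p = 0.133 and 0.372) or with GRP-E1F2 (adjusted p = 0.0570 and 0.240), and both were higher in treated than in young libraries, by 0.49 on the log2 scale (SE 0.0897, limma adjusted p = 0.00217) and 0.49 (SE 0.155, limma adjusted p = 0.0289). The share of Grm4 in the summed TPM of the 6 receptors was 62.1 to 75.1% in young, 47.6 to 55.6% in aged and 13.9 to 26.5% in treated libraries. The sum itself was 113 to 134, 102 to 106 and 78.9 to 87.2 TPM and did not overlap between groups.

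Of the vesicular glutamate transporters, Slc17a7 made up 95.1% to 99.1% of the summed TPM. Slc17a7 (NCBI gene 72961, chr7:45163921-45176139, plus strand) stood at 436, 359 and 401 TPM in the young libraries, 547, 523 and 529.7 TPM in the aged and 782, 447 and 607 TPM in the treated libraries. The aged libraries all lay above the young ones, but the difference did not pass (log2 fold change 0.42, adjusted p = 0.111). The treated libraries spread on both sides of the aged ones (log2 fold change 0.16, adjusted p = 0.535). Their order, library 1 over 3 over 2, was also that of the neocortical marker sum, at 228, 109 and 169 TPM in libraries 1, 2 and 3. The hippocampal, thalamic, astrocyte, oligodendrocyte precursor and granule cell sums and that of neurons of all kinds had this order too. The striatal, olfactory bulb, GABAergic, oligodendrocyte and microglia sums ran in reverse. Treated library 3 was intermediate at 91.8% of the genes compared, so a shared order does not single out a region. Between treated and young libraries Slc17a7 rose by 0.59 on the log2 scale (SE 0.169, limma adjusted p = 0.0188).

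Slc17a6 (NCBI gene 140919, chr7:51621830-51671126, plus strand) showed the largest fall with age of the 29 genes. It stood at 16.8, 18.1 and 17.7 TPM in the young libraries, 4.06, 8.59 and 12.2 TPM in the aged and 5.46, 7.64 and 6.84 TPM in the treated libraries. The young libraries lay above all others and close to each other, while the aged ones spread over 3.02-fold. The log2 fold change was -1.10 (SE 0.288, limma adjusted p = 0.0340) with age, and with GRP-E1F2 the groups overlapped (log2 fold change -0.18, adjusted p = 0.688). Among aged libraries its order was that of the hindbrain marker sum, at 1.58, 4.75 and 7.25 TPM in libraries 1, 2 and 3. The thalamic sum, at 37.2, 51.9 and 71.9 TPM, had this order too. So did the granule cell, Purkinje cell, hippocampal, astrocyte, oligodendrocyte, oligodendrocyte precursor and microglia sums. The neocortical, striatal and olfactory bulb sums and that of neurons of all kinds ran in reverse. Aged library 2 was intermediate at 91.5% of the genes compared, so this order was not particular to a region. Slc17a8, the transporter of scattered cholinergic, serotonergic and interneuron terminals, was low, at 0.683, 0.473 and 0.460 TPM in the young libraries, 1.22, 0.866 and 1.00 TPM in the aged and 1.65, 1.92 and 1.51 TPM in the treated libraries. Its groups did not overlap, and it rose by 0.40 on the log2 scale (SE 0.109, limma adjusted p = 0.0382) with age and by 0.41 on the log2 scale (SE 0.109, limma adjusted p = 0.0286) with GRP-E1F2.

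Around the receptors, 51 further genes of glutamate signalling were followed, of which 50 were tested: receptors of the family outside the 30, AMPA receptor auxiliary and assembly proteins, scaffolds, uptake and synthesis, and co-agonist supply. With age 4 rose and 14 fell (8 and 14 with median-of-ratios scaling), with GRP-E1F2 15 rose and 17 fell, and from young to treated 19 rose and 21 fell, with medians of -0.07, 0.01 and 0.07. All tested genes gave 5.48% upward and 11.2% downward with age and 7.47% and 13.4% with GRP-E1F2. From young to treated they gave 17.2% and 29.4%, and their medians in the 3 comparisons were -0.05, -0.02 and -0.07. With 2 libraries per group 0, 5 and 25 passed by limma, where 0.0226%, 1.86% and 12.9% of all genes did. In these fits 16, 22 and 36 of the 50 had an unadjusted p under 0.05, as did 1431, 1792 and 4045 of all 13301 genes. With age, 7, 5, 4 and 11 of the 50 passed without young library 2, young library 3, aged library 2 and treated library 3. With GRP-E1F2, 15, 21 and 15 passed without aged library 2, aged library 3 and treated library 3. Glud1, Slc1a3 and Homer3, which fell, were among the genes of smallest adjusted p with age. Glud1, glutamate dehydrogenase, went from 123 ± 5.84 TPM at 5 months to 93.2 ± 3.43 TPM at 18 months under saline (log2 fold change -0.39, SE 0.0538, limma adjusted p = 0.00474). Slc1a3, the glutamate transporter of astrocytes and Bergmann glia, went from 215 ± 22.2 TPM at 5 months to 156 ± 5.65 TPM at 18 months under saline (log2 fold change -0.45, adjusted p = 0.00804). Homer3, a Purkinje cell scaffold of metabotropic receptors, fell from 158 ± 28.2 TPM at 5 months to 80.9 ± 15.3 TPM at 18 months under saline (log2 fold change -0.96, adjusted p = 0.00834).

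With GRP-E1F2, Dao, Homer3 and Slc1a6 were among the genes of smallest adjusted p and also passed with 2 libraries per group. Dao, the D-amino acid oxidase that breaks down the NMDA receptor co-agonist D-serine, stood at 26.7, 42.2 and 33.8 TPM in the young libraries, 18.4, 18.4 and 21.3 TPM in the aged and 0.0482, 0.0735 and 0 TPM in the treated libraries, where library 3 listed it at 0. Its log2 fold change was -4.29 (SE 0.144, limma adjusted p = 3.28e-07), and the treated libraries were near or at 0. Homer3 stood at 67.1, 78.3 and 97.3 TPM in aged and 8.80, 7.13 and 8.26 TPM in treated libraries (log2 fold change -3.16, SE 0.158, limma adjusted p = 4.16e-06). Slc1a6, the glutamate transporter of Purkinje cells, went from 33.8 ± 3.93 TPM in aged to 6.05 ± 0.473 TPM in treated libraries (log2 fold change -2.30, SE 0.144, limma adjusted p = 1.38e-05). The Purkinje cell marker sum fell by a factor of 8.71 between the same groups, but its 5 markers differed widely. Pcp2, Ppp1r17 and Car8 fell by factors of 135, 83.9 and 40.7, and Calb1 and Itpr1 by 2.46 and 1.99.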

How the data were processed

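RNA sequencing was deposited for 9 mouse brain libraries. Total RNA was made into libraries with NEBNext Ultra II reagents, per the labels' protocols. Per the submitters' processing notes, the tools included SAMtools 0.1.18, HISAT2, GATK and Picard, with the build mm10. The deposited values are TPM, computed by the authors per gene and library. How strand and reads of similar genes were handled, and with which tool and annotation, was not given in the sources used here. Library sums were 999667 to 999929 TPM, and depth is unknown.

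The 30 genes, the 51 further genes and the marker lists were chosen with earlier results of these data known. TPM was transformed to log2(TPM + 1), and the 13301 of 22192 genes averaging 1 TPM or more were tested in limma 3.58.1 (R 4.3.3; lmFit and eBayes with trend) over all 9 libraries, two-sided, with Benjamini-Hochberg adjustment over all genes tested; an adjusted p under 0.05 counts as risen or fallen. Fold changes refer to log2(TPM + 1), so those of low genes are understated. The fit was tested on simulated data. All 30 genes are named. Of the 51, up to 4 per comparison with the smallest adjusted p, and Grm6, are named; results on some of them are not reported here. Marker lists are given as summed TPM. A library lay between when its value was within the range of the other pair. Positions are from RefSeq, GRCm38.p6, the build also called mm10, matched by gene ID for all 30, and exon lengths from GENCODE M21. Python 3.11.15, numpy 2.4.6, pandas 2.3.3 and matplotlib 3.10.9 were used. Alternatives were pseudocounts of 0.1 and 5 TPM, all genes or those averaging 5 TPM or more, quantile normalisation, median-of-ratios scaling, a block for the replicate number, fits restricted to the pair of groups compared, untrended and robust eBayes, leaving out each library, and 2 libraries per group.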

Additional observations from a re-analysis of the deposited data

How the results depend on the processing

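Of 1722 values of single genes under 20 alternatives, 1455 kept their direction and side of the threshold. A further 197 lost the call, 41 gained one and 29 changed sign, none of the latter at an adjusted p under 0.05. With GRP-E1F2 the calls of Grm2 and Neto1 were lost under 11 of 20 alternatives and that of Grid1 under 10. Those of Grin2c and Grm4 were lost under none. With age the call of Grm5 was lost under 11 of 20, that of Grm4 under 10 of 20 and that of Slc17a8 under 10 of 19. With age the 14 calls were 9 to 14 under the other settings except 2 libraries per group, with 9 when only the 2 groups compared were fitted. Without 1 library in turn, calls were 0 to 14 for the 30 genes, 371 to 2635 for all genes (2217) and 4 to 24 for the 51 further genes (18). With GRP-E1F2 these ranges were 3 to 13 (12), 1345 to 3060 (2771) and 15 to 31 (32), and from young to treated 19 to 24 (22), 4737 to 6635 (6204) and 36 to 40 (40). With 2 libraries per group the counts were 0, 3 and 0 with age, 2, 248 and 5 with GRP-E1F2, and 9, 1713 and 25 from young to treated, with fewer samples by construction. Over all genes, 729 rose and 1488 fell with age, but 925 and 1025 did with median-of-ratios scaling and 951 and 1068 with quantile normalisation. With GRP-E1F2, 994 and 1777 became 1425 and 1487 with quantile normalisation, and from young to treated 2294 and 3910 became 3015 and 3074 with median-of-ratios scaling and 3106 and 3013 with quantile normalisation.

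The replicate number as a block gave 13, 13 and 22 calls of the 30 genes in the 3 comparisons. Deviations of same-numbered libraries correlated at -0.055 to 0.13, and not every library correlated best with its own number, so the numbers were not taken as pairs. Among uncalled genes that changed sign, and the cause was not tested, Grik4 with age was 0.025 with median-of-ratios scaling, 0.029 with quantile normalisation and -0.13 to 0.059 without 1 library. With GRP-E1F2, quantile normalisation gave 0.024 for Grin2a, 0.027 for Grin2d and 0.020 for Neto2, and 2 libraries per group -0.0050 for Grik4. From young to treated, Grik2 was 0.055 with median-of-ratios scaling and 0.096 with quantile normalisation, and Grik4 -0.013 with 2 libraries per group. Without 1 library, Neto2 with age ran from -0.32 to 0.044. With GRP-E1F2 the ranges were -0.25 to 0.084 for Grin2a, -0.043 to 0.19 for Grin2b, -0.18 to 0.071 for Grin2d, -0.035 to 0.17 for Grik4, -0.57 to 0.13 for Slc17a6, -0.033 to 0.37 for Slc17a7 and -0.21 to 0.16 for Neto2. From young to treated they were -0.035 to 0.076 for Grin3a, -0.10 to 0.080 for Grik2 and -0.053 to 0.15 for Grik4. Depth is unknown, so what it limits could not be given.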

Other observations

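Within the young group, library 2 was the lowest of the 3 at 19 of the 30 genes and library 1 the highest at 21. Library 2 had 4.47 TPM of Grm5 against 7.92 in library 1, the widest ratio of the young libraries at 1.77-fold, and 8.88 against 15.6 TPM of Neto1. It had the most Grm4 (100.3 TPM), Grin2c (43.0 TPM) and Gria4 (60.3 TPM) of all 9 libraries. In the same library the granule cell marker sum was 1831 TPM, the highest of the 9, and the striatal and neocortical sums were 279 and 46.0 TPM, the lowest of the 9. Differences of the same direction as those between groups were thus present between libraries of 1 group.

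Further marker lists were summed in the same way. Summed TPM of 5 oligodendrocyte markers was 5560.4 to 5846 TPM in young, 3876 to 4206 in aged and 3211 to 3322 in treated libraries, and that of 6 GABAergic markers 4372 to 4861 TPM in young, 3513 to 3800.1 in aged and 2329.9 to 2903 in treated libraries. The latter sum followed Pvalb, which fell in each comparison, with means of 3243, 1944 and 356 TPM in young, aged and treated libraries. None of the other 5 GABAergic markers fell; Gad2 and Sst rose from young to treated, from means of 25.4 to 43.1 TPM and 914 to 1683 TPM. For 6 thalamic markers the summed TPM was 49.4 to 49.8 TPM in young, 37.2 to 71.9 in aged and 16.1 to 23.3 in treated libraries, for 7 hippocampal markers 24.0 to 33.3 TPM in young, 24.6 to 30.02 in aged and 21.3 to 37.6 in treated libraries, and for 4 olfactory bulb markers 7.47 to 8.62 TPM in young, 17.1 to 19.1 in aged and 17.4 to 68.9 in treated libraries. Markers of microglia (5) summed to 87.7 to 105 TPM in young, 108 to 126 in aged and 119 to 156 in treated libraries, and those of oligodendrocyte precursors (4) to 41.3 to 42.3 TPM in young, 35.1 to 40.1 in aged and 36.8 to 39.8 in treated libraries.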
